A study of Mus musculus with 6 samples.

Results

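The sterol and fatty acid synthesis genes examined here are 40 genes chosen by name and found by symbol: the enzymes that build cholesterol and its isoprenoid precursors, the enzymes that build and desaturate fatty acids, and the SREBP and LXR genes around them. All 40 had a row among the 16874 genes of the deposited table, and 39 passed the filter on low values. RNA was sequenced from fibroblasts, which form connective tissue, that had been cultured from the colon of C57BL/6 mice aged 12 weeks. There were 3 libraries labelled Prkcz-/-, a genotype that stands for loss of the atypical protein kinase C zeta, and 3 libraries labelled WT. Neither group received a treatment, and RNA was taken 24 h after the cells were plated, when they covered about 80% of the dish. The design text mentions a control guide and a Sox2 guide, but the labels of these libraries name no guide, only the genotype. No label states that replicates were taken from different mice or cultures. The p-values therefore measure only the spread between these libraries, which may be technical.

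Cells make cholesterol from acetyl-CoA through mevalonate, farnesyl diphosphate, squalene and lanosterol. Transcription of nearly all these enzymes is driven by the membrane-bound factor SREBP2, and that of the fatty acid enzymes largely by SREBP1. The escort protein SCAP carries both to the Golgi for cleavage when membrane sterol is low, and the INSIG proteins hold SCAP in the endoplasmic reticulum when it is high. LXR receptors answer to oxysterols from the other side, by raising the efflux pumps Abca1 and Abcg1, the LDL receptor ligase Mylip and, in liver, Srebf1 and Fasn.

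The libraries were fairly even, at about 12200000 to 13900000 reads in those labelled Prkcz-/- and 12200000 to 13500000 in those labelled WT, as estimated from the steps between low values. The targeted gene itself, Prkcz, did not match the labels, with 1.35, 1.32 and 1.17 FPKM (fragments per kilobase of gene, scaled to sequencing depth) in the libraries labelled Prkcz-/-, against 0.0433, 0.144 and 0.202 FPKM in those labelled WT. Its log2 difference was 1.51 (SE 0.148, limma adjusted p = 4.65e-05). A value over the whole gene does not show whether the deleted part was read. Whether the labels of the groups were exchanged was not tested; every direction given here follows the labels as deposited and would turn round with them. All 10 fibroblast markers were measured. At a limma adjusted p under 0.05, 6 were higher and 4 lower, where 31.5% of all genes tested were higher and 37.2% lower. Their summed level was 8221 to 8509 FPKM in the libraries labelled Prkcz-/- and 6114 to 6452 FPKM in those labelled WT. Col1a1, the most abundant, averaged 2972 and 1815 FPKM in the libraries labelled Prkcz-/- and WT. By 1 or more on the log2 scale, 2 of the markers were lower and 2 higher, all named after their values were seen. The lower ones were Dcn and Lum. Dcn averaged 5.34 and 49.1 FPKM and Lum 0.0921 and 3.39 FPKM in the libraries labelled Prkcz-/- and WT. The higher ones were Pdgfra (log2 change 1.45) and Pdgfrb (log2 change 1.498).

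Across the 39 members tested, 32 were lower and 4 higher in the libraries labelled Prkcz-/-, and 3 did not pass the test (limma on log2(FPKM + 0.5), adjusted p under 0.05 over all 12130 genes tested). Over all genes tested, 37.2% were lower and 31.5% higher, 68.7% in all, so a call alone says little and size and direction matter more. Counting only calls of 1 or more on the log2 scale, 14 members were lower and 2 higher, where 3.55% of all genes were lower and 7.29% higher by that much. The members' median log2 change was -0.71, against -0.04 over all genes tested. The groups did not overlap for 36 of the 39 members, against 72.7% of all genes. Because this is RNA from whole cultures, fewer cells of a type and less RNA per cell cannot be told apart. Within groups the median coefficient of variation of the members was 2.94% in the libraries labelled Prkcz-/- and 3.56% in those labelled WT, with highest values of 14.3% and 74.5% (Nr1h3 in the WT libraries).

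**Figure D1:**
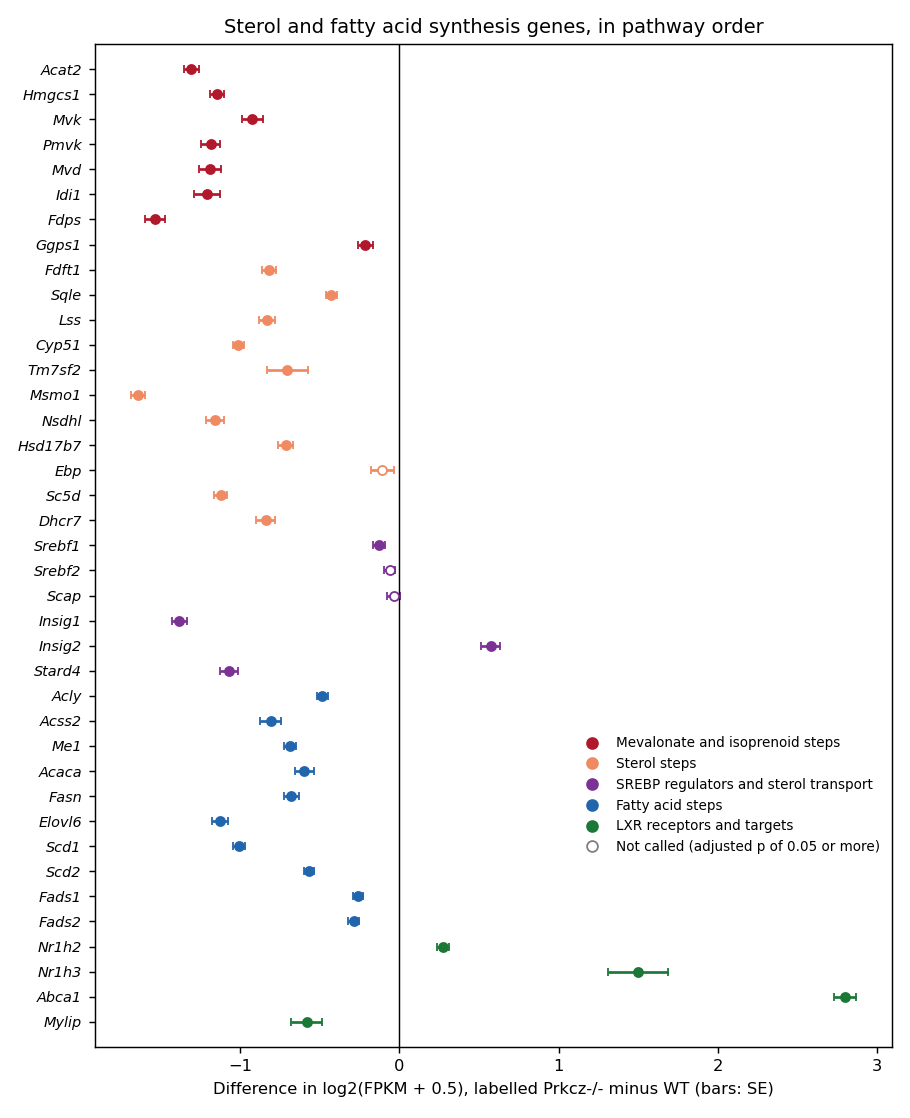
Difference in log2(FPKM + 0.5) between libraries labelled Prkcz-/- and WT (3 each) for the 39 tested members in pathway order, coloured by role, with SE bars; open circles did not pass the test. The mevalonate, sterol and fatty acid steps lie left of 0, while Insig2, Nr1h2, Nr1h3 and Abca1 lie right of it.

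The mevalonate and isoprenoid steps were all lower, 8 of 8, against 37.2% of all genes tested, with a median log2 change of -1.19. Their summed level was 179, 190 and 184 FPKM in the libraries labelled Prkcz-/-, against 447, 443 and 428 FPKM in those labelled WT. Acat2, the cytosolic thiolase that joins acetyl-CoA units, measured 18.8, 19.1 and 19.0 FPKM in the libraries labelled Prkcz-/-, against 50.3, 44.4 and 48.2 FPKM in those labelled WT. Hmgcs1, the HMG-CoA synthase (chromosome 13, 119690379 to 119708260, plus strand), measured 39.8, 43.6 and 42.7 FPKM in the libraries labelled Prkcz-/-, against 91.0, 95.8 and 93.5 FPKM in those labelled WT. Every library labelled Prkcz-/- was far below every WT library for both, by -1.31 (SE 0.050, limma adjusted p = 2.50e-07) for Acat2 and -1.14 (SE 0.043, limma adjusted p = 2.32e-07) for Hmgcs1 on the log2 scale.

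Further along, Pmvk, the phosphomevalonate kinase, measured 21.5, 19.7 and 22.3 FPKM in the libraries labelled Prkcz-/-, against 49.5, 50.7 and 46.1 FPKM in those labelled WT (log2 change -1.19, SE 0.057). Fdps, the farnesyl diphosphate synthase (chromosome 3, 89093588 to 89101959, minus strand), measured 52.7, 62.7 and 56.9 FPKM in the libraries labelled Prkcz-/-, against 173, 167 and 162 FPKM in those labelled WT. That was the second largest fall among the members, at -1.54 on the log2 scale (SE 0.062, limma adjusted p = 3.38e-07). Mvk and Mvd, the kinase and decarboxylase on either side of Pmvk, and Idi1, the isopentenyl diphosphate isomerase, had log2 changes of -0.92, -1.19 and -1.21. The exception in size was Ggps1, which leaves the sterol route to make geranylgeranyl diphosphate for protein prenylation. It measured 12.6, 13.2 and 12.5 FPKM in the libraries labelled Prkcz-/-, against 14.4, 15.2 and 15.1 FPKM in those labelled WT (log2 change -0.21, SE 0.047, limma adjusted p = 0.00393), and the call ended when short RNA genes were left out of the scaling (adjusted p = 0.0597).

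Some of these rows are less certain because of near copies. Windows of 76 bases, the read length, were shared with other annotated genes for 33.7% of Acat2 (with Acat3), 23.4% of Fdps and 16.7% of Idi1. Acat3 itself measured at most 0.602 FPKM in any library. Fdps also overlaps the annotated gene Gm43738 on the same strand. Hmgcs1, Mvk, Pmvk and Mvd shared no such window.

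Of the 11 sterol steps from squalene onward, 10 were lower and none higher, where 37.2% of all genes tested were lower and 31.5% higher. Their median log2 change was -0.83. Their summed level was 211 to 216 FPKM in the libraries labelled Prkcz-/- and 406 to 418 FPKM in those labelled WT. Msmo1, the sterol methyl oxidase that begins removal of the methyl groups at carbon C4 (chromosome 8, 64718139 to 64733792, minus strand), fell most of all 39 tested members. It measured 31.9, 31.0 and 30.8 FPKM in the libraries labelled Prkcz-/-, against 99.1, 93.0 and 104 FPKM in those labelled WT (log2 change -1.64, SE 0.045, limma adjusted p = 4.70e-08). Of all tested genes, 1.62% fell further. Nsdhl, which acts next to Msmo1 in that demethylation, measured 12.1, 11.04 and 12.7 FPKM in the libraries labelled Prkcz-/-, against 26.9, 27.3 and 27.3 FPKM in those labelled WT (log2 change -1.16).

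Cyp51, the lanosterol demethylase, measured 30.9, 31.3 and 31.7 FPKM in the libraries labelled Prkcz-/-, against 64.5, 61.5 and 64.9 FPKM in those labelled WT (log2 change -1.01, SE 0.035). Sc5d, a desaturase late in the pathway, measured 23.6, 24.2 and 24.4 FPKM in the libraries labelled Prkcz-/-, against 51.1, 53.4 and 54.6 FPKM in those labelled WT (log2 change -1.12, SE 0.038). Both were thus near 0.5 times the WT mean, at 49.2% and 45.4%, with no overlap between groups, as for 72.7% of all genes tested. Fdft1 (squalene synthase), Lss (lanosterol synthase), Hsd17b7 (a sterol ketoreductase) and Dhcr7 (the last reductase before cholesterol) lay close together, with log2 changes of -0.82, -0.83, -0.71 and -0.84. Of the exon length of Fdft1, 18.3% overlaps Ctsb on the opposite strand, and 5.07% of its windows are shared with Gm6781. Tm7sf2, a sterol reductase, changed by -0.70 with the widest error of the group (SE 0.129). Its level was low (3.32, 3.66 and 3.19 FPKM in the libraries labelled Prkcz-/-, against 6.58, 6.45 and 4.64 FPKM in those labelled WT), and 8.79% of its windows are shared with Vps51, which overlaps it on the same strand.

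The sterol steps did not move by equal amounts. Sqle, the squalene epoxidase and a rate-controlling enzyme, measured 47.9, 49.7 and 50.9 FPKM in the libraries labelled Prkcz-/-, against 67.4, 67.4 and 65.3 FPKM in those labelled WT. A change of -0.43 on the log2 scale (SE 0.036, limma adjusted p = 1.96e-05) left it at 74.2% of the WT mean, where its neighbours Fdft1 and Lss were at 55.8% and 55.0%. Ebp, the sterol isomerase that acts just before Sc5d, measured 17.9, 21.7 and 20.8 FPKM in the libraries labelled Prkcz-/-, against 21.9, 21.9 and 21.1 FPKM in those labelled WT. The groups overlapped, and the log2 change was -0.11 (95% interval -0.27 to 0.06, limma adjusted p = 0.212), so a fall as large as that of Msmo1 or Sc5d lies outside the interval. Within each library the ratio of Msmo1 to Ebp, which a common scaling factor cannot alter, was 1.78, 1.43 and 1.48 in those labelled Prkcz-/-, against 4.52, 4.25 and 4.91 in those labelled WT.

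**Figure D2:**
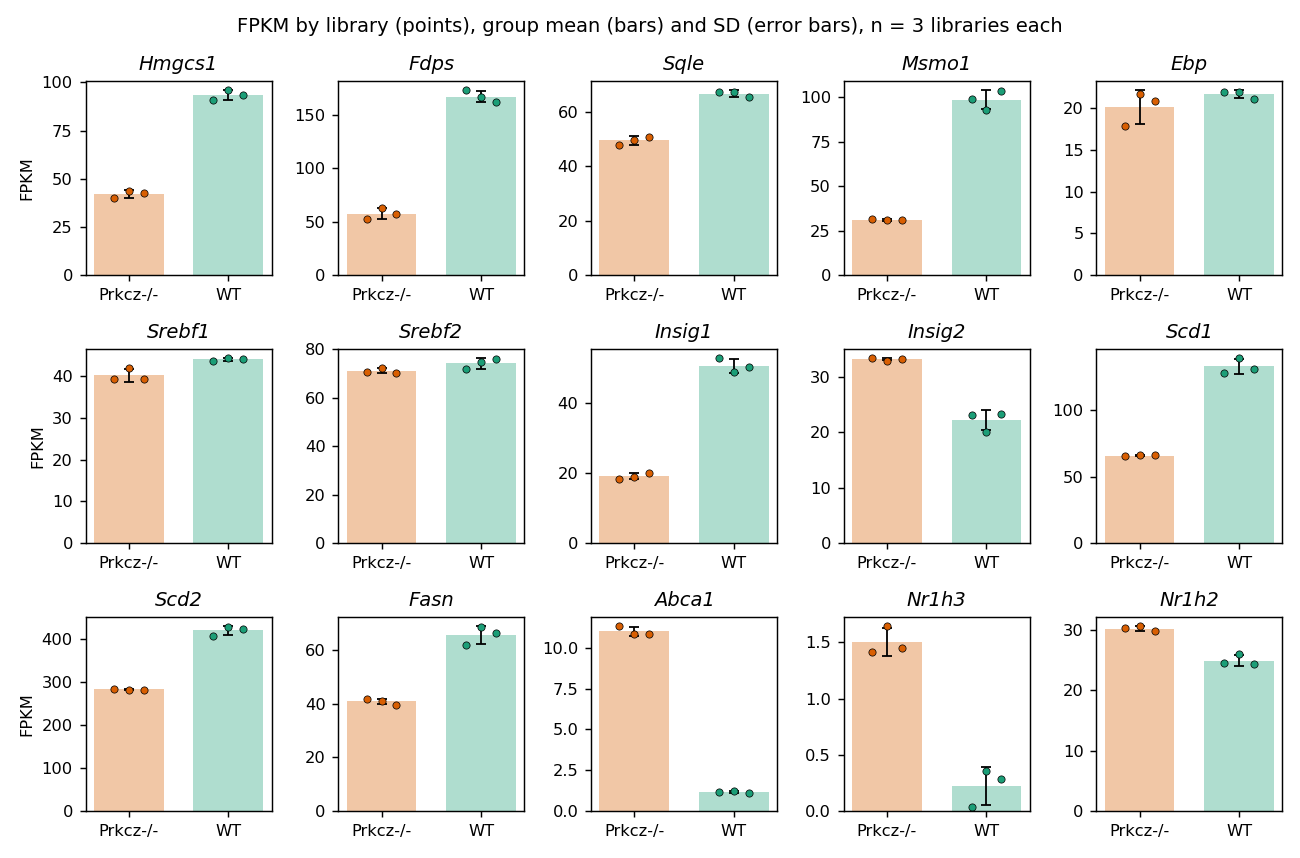
FPKM of 15 members in each library (points), with group means (bars) and SD (error bars), 3 libraries labelled Prkcz-/- left and 3 labelled WT right in each panel. Hmgcs1, Fdps, Msmo1, Insig1 and Scd1 are lower without overlap in the libraries labelled Prkcz-/-, Ebp and Srebf2 overlap, and Insig2, Abca1 and Nr1h3 are higher.

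The genes of the SREBP factors and of their escort SCAP hardly differed. Srebf2, which encodes SREBP2, measured 70.7, 72.4 and 70.4 FPKM in the libraries labelled Prkcz-/-, against 71.7, 74.9 and 75.9 FPKM in those labelled WT. The groups overlapped (log2 change -0.06, 95% interval -0.14 to 0.02, limma adjusted p = 0.156). Scap overlapped as well, at 24.9, 24.7 and 23.8 FPKM in the libraries labelled Prkcz-/- and 25.7, 25.5 and 24.1 FPKM in those labelled WT (log2 change -0.04, 95% interval -0.13 to 0.06, limma adjusted p = 0.470). Srebf1, whose protein SREBP1 drives fatty acid genes, measured 39.4, 42.0 and 39.3 FPKM in the libraries labelled Prkcz-/-, against 43.6, 44.2 and 44.1 FPKM in those labelled WT. It passed the test at -0.13 on the log2 scale (SE 0.038, limma adjusted p = 0.0164). That call ended with quantile normalization (0.200), without short RNA genes (0.347), and without replicate 1 (0.0622) or replicate 3 (0.0615) labelled Prkcz-/-. The table holds 1 row for each gene and does not separate the SREBP1a and SREBP1c isoforms, and RNA does not show how much SREBP was cleaved.

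The sterol-sensing INSIG genes moved apart. Insig1 (chromosome 5, 28071363 to 28078662, plus strand), itself a target of SREBP, measured 18.4, 19.0 and 20.04 FPKM in the libraries labelled Prkcz-/-, against 52.9, 48.9 and 50.2 FPKM in those labelled WT (log2 change -1.38, SE 0.047, limma adjusted p = 1.41e-07). Insig2 (chromosome 1, 121304353 to 121332589, minus strand), which is not driven by SREBP in the same way, measured 33.3, 32.9 and 33.2 FPKM in the libraries labelled Prkcz-/-, against 23.1, 20.1 and 23.3 FPKM in those labelled WT (log2 change 0.57, SE 0.059, limma adjusted p = 6.05e-05). The order of the pair therefore differed: the within-library ratio of Insig1 to Insig2 was 0.552, 0.578 and 0.603 in the libraries labelled Prkcz-/-, against 2.29, 2.44 and 2.16 in those labelled WT. Stard4, a cytosolic sterol carrier and SREBP target, measured 14.7, 13.6 and 13.7 FPKM in the libraries labelled Prkcz-/-, against 27.8, 31.1 and 31.0 FPKM in those labelled WT (log2 change -1.07, SE 0.058).

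The fatty acid steps were all lower, 10 of 10, against 37.2% of all genes tested, by less than most sterol steps (median log2 change -0.64). Their summed level was 736, 737 and 732 FPKM in the libraries labelled Prkcz-/-, against 1058, 1099 and 1076 FPKM in those labelled WT. The enzymes that supply acetyl-CoA and NADPH, Acly, Acss2 and Me1, had log2 changes of -0.48, -0.81 and -0.69. Of these, the malic enzyme Me1 measured 24.4, 23.8 and 24.9 FPKM in the libraries labelled Prkcz-/-, against 39.99, 39.3 and 39.3 FPKM in those labelled WT, and 16.2% of its windows are shared with annotated copies. Acaca, the acetyl-CoA carboxylase, had a log2 change of -0.60, with 26.6% of its windows shared. Fasn, the fatty acid synthase, measured 41.7, 41.2 and 39.7 FPKM in the libraries labelled Prkcz-/-, against 62.1, 68.8 and 66.3 FPKM in those labelled WT (log2 change -0.68, SE 0.045).

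Beyond palmitate, the elongase Elovl6 measured 11.2, 10.6 and 11.4 FPKM in the libraries labelled Prkcz-/-, against 24.3, 23.9 and 25.7 FPKM in those labelled WT (log2 change -1.13, SE 0.049, limma adjusted p = 5.17e-07). The stearoyl-CoA desaturases Scd1 and Scd2 introduce the double bond of oleate and lie 87.6 kb apart on chromosome 19. Scd1 measured 65.3, 66.5 and 66.0 FPKM in the libraries labelled Prkcz-/-, against 128, 139 and 131 FPKM in those labelled WT (log2 change -1.01, SE 0.038). Scd2, the member with the highest FPKM, measured 285, 281 and 282 FPKM in the libraries labelled Prkcz-/-, against 407, 427 and 424 FPKM in those labelled WT (log2 change -0.57, SE 0.031, or -0.37 with quantile normalization).

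Scd1 was lower relative to Scd2 in each library labelled Prkcz-/- than in any WT library, at ratios of 0.230, 0.237 and 0.234 in those labelled Prkcz-/-, against 0.315, 0.326 and 0.310 in those labelled WT. Few windows are shared within the family, 3.13% of Scd1 and 1.74% of Scd2. The neighbours Fads1 and Fads2, the desaturases of polyunsaturated fatty acids, lie 81.1 kb apart on the same chromosome and changed least of the fatty acid steps. Fads1 had a log2 change of -0.26 (SE 0.033) and Fads2 of -0.29 (SE 0.037), or -0.15 and -0.18 with quantile normalization.

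**Figure D3:**
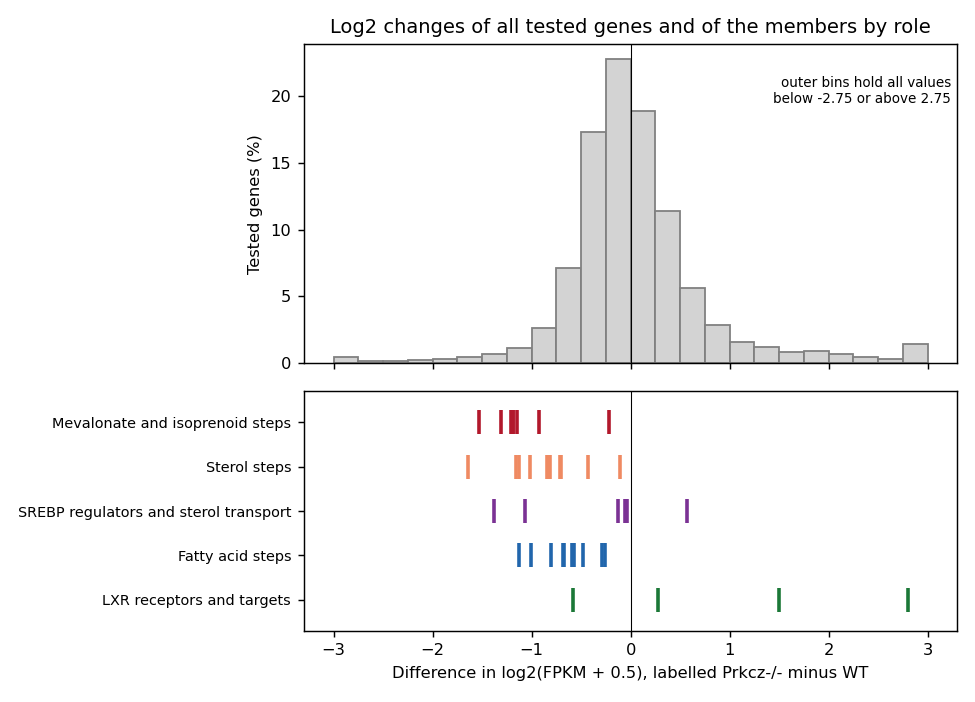
Top, distribution of the log2 changes of all 12130 tested genes (percent of genes in bins of 0.25); bottom, the tested members by role, 1 tick each. The mevalonate and sterol ticks lie mostly in the left tail, around medians of -1.19 and -0.83, while the median of all genes is -0.04.

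LXR genes went the other way, apart from Mylip. Abca1, the pump that loads cholesterol onto apolipoprotein A-I (chromosome 4, 53030787 to 53159895, minus strand), measured 11.3, 10.9 and 10.9 FPKM in the libraries labelled Prkcz-/-, against 1.14, 1.23 and 1.09 FPKM in those labelled WT. The mean was 9.54 times that of WT, or 2.80 on the log2 scale (SE 0.069, limma adjusted p = 2.71e-08). An estimated 1438 to 1561 reads lay behind each value in the libraries labelled Prkcz-/- and 153 to 160 in those labelled WT. Nr1h3, which encodes LXR alpha, measured 1.42, 1.65 and 1.45 FPKM in the libraries labelled Prkcz-/-, against 0.0353, 0.351 and 0.282 FPKM in those labelled WT. Its log2 change was 1.499 (SE 0.191, limma adjusted p = 2.09e-04), but it rests on about 1.2 to 10.8 reads in the WT libraries and came to 2.49 with a pseudocount of 0.1.

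Nr1h2, which encodes the broadly expressed LXR beta, was the more abundant receptor in every library. It measured 30.3, 30.7 and 29.8 FPKM in the libraries labelled Prkcz-/-, against 24.5, 25.9 and 24.3 FPKM in those labelled WT (log2 change 0.27, SE 0.040, limma adjusted p = 4.52e-04). Abcg1, the partner pump of Abca1, was the member below the filter. It measured 0.122, 0.156 and 0.151 FPKM in the libraries labelled Prkcz-/-, equal to 11, 16 and 15 reads, while it was listed at 0 in WT libraries 1 and 2 and measured 0.0301 FPKM, 3 reads, in WT library 3. The groups did not overlap, at a level far below that of Abca1. Mylip, the ligase that degrades the LDL receptor and a known LXR target, was lower, at 4.39, 3.30 and 3.81 FPKM in the libraries labelled Prkcz-/-, against 5.86, 5.88 and 6.12 FPKM in those labelled WT (log2 change -0.58, SE 0.096, limma adjusted p = 9.07e-04). The LXR targets named here thus did not move as a block. Abca1 was higher, as were Abcg1 near the floor and Apoe (given below), while Mylip was lower. Lpcat3, from the same list as Apoe and named after its values were seen, was lower too (log2 change -0.49). The member Scd1 was also lower (log2 change -1.01). Of the targets named above for liver, Fasn was lower. Srebf1 differed little (log2 change -0.13), and its call ended under some settings.

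Promoters are shown for 5 members that mark the directions: Hmgcs1, Msmo1 and Insig1, which fell by more than 1 on the log2 scale, Fasn, a lower gene with a known LXR site, and Abca1, which rose. Each is the 250 bases before the start of the gene in RefSeq (build GRCm38.p6, 5′ to 3′ on the strand of the gene), at chr13:119690101-119690350 (plus), chr8:64733579-64733828 (minus), chr5:28071162-28071411 (plus), chr11:120824548-120824797 (minus) and chr4:53159896-53160145 (minus). Capitals mark CCAAT on either strand in all but Abca1, whose window holds none, TCACNCCAC (a sterol regulatory element) in Hmgcs1, its shorter core CACNCCAC in Insig1, and, in Fasn and Abca1, the LXR-type repeat of GGTNA and GGTCA 5 bases apart. For Msmo1 and Insig1 the RefSeq start lies inside the gene as GENCODE places it (up to 64733792 and from 28071363). Most of the Msmo1 window, with all its CCAAT boxes, and the CACNCCAC match of Insig1 therefore fall within the GENCODE gene, not upstream of it.
Hmgcs1: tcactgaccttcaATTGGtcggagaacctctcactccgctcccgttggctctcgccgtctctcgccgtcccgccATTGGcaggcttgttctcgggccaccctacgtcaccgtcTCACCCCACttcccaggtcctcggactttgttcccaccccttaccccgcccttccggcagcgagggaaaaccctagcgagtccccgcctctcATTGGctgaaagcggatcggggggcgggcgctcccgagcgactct
Msmo1: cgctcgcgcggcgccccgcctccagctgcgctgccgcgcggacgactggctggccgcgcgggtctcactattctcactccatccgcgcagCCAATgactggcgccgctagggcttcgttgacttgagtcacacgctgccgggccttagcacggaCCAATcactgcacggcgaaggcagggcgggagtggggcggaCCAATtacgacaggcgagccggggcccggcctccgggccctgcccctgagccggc
Insig1: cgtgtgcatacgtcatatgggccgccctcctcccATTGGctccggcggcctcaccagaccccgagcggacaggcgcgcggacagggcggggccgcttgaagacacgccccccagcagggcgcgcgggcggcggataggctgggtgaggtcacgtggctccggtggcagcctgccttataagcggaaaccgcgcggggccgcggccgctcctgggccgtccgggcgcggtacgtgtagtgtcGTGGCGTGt
Fasn: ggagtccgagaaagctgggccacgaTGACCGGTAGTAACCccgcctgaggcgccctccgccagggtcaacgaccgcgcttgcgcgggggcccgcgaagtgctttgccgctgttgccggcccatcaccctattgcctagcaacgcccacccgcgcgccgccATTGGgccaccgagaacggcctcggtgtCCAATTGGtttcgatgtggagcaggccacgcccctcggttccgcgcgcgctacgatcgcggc
Abca1: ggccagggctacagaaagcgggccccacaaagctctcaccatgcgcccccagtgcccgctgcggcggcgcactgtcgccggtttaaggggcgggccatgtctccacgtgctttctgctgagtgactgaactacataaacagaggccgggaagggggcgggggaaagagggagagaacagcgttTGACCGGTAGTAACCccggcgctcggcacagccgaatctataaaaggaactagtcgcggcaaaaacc

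Of the 40 members, 32 had an entry in the RefSeq promoter table, 16 of them mevalonate or sterol steps. CCAAT, the box bound by NF-Y, a known partner of SREBP, stood within 250 bases before a start in 15 of those 16. It stood in 3 of 7 fatty acid steps and in 41.2% of the 9186 tested genes with an entry (33.85% of all 32851 promoters of the table). Acat2 was the sterol-route member without it, and Ebp, which did not pass the test, held it too. GGGCGG, the GC box, stood in 14 of the 16 against 66.3% of tested genes. TCACNCCAC was found in Hmgcs1 alone of the 32 (1.24% of tested genes), and the core CACNCCAC in Acat2, Hmgcs1 and Insig1 (6.73% of tested genes), which includes the longer match of Hmgcs1. CACGTG, an E-box, was found in 6 of 32 (10.1% of tested genes). All were searched on both strands, and a gene with several listed starts counted once if any window matched.

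The LXR-type repeat stood in 3 members, Abca1, Fasn and Srebf1, and in 14 of the 9186 tested genes in all (0.152%; 0.177% of all promoters of the table). Read on the minus strand of the gene, with the capitals marking the repeat, the matches lay 67 to 53 bases before the start of Abca1, 225 to 211 before Fasn and 182 to 168 before a listed start of Srebf1.
Abca1 repeat: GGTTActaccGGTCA
Fasn repeat: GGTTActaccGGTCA
Srebf1 repeat: GGTTActggcGGTCA
The Abca1 and Fasn matches are identical in letters. Abca1 was 9.54 times the WT mean and Fasn was at 62.2% of it. Whether LXR bound either match was not tested.

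Related genes outside the 40 were counted by list, to be read beside the 37.2% lower and 31.5% higher over all genes tested. Of 10 tested genes for SREBP cleavage and sterol sensing, 4 were lower and 1 higher (median log2 change -0.12). Of these, Erlin2, which helps degrade sterol enzymes, averaged 20.8 FPKM in the libraries labelled Prkcz-/- and 27.0 FPKM in those labelled WT. Mbtps2, named after its values were seen, averaged 6.06 FPKM in the libraries labelled Prkcz-/- and 9.33 FPKM in those labelled WT. Its log2 change was -0.58 (limma adjusted p = 3.57e-04), while Mbtps1 did not pass the test (log2 change -0.14). Of 18 tested genes for sterol storage, uptake and transport, 10 were higher and 5 lower (median log2 change 0.27). Stard5, a sterol-binding protein, averaged 19.7 ± 1.11 FPKM in the libraries labelled Prkcz-/- and 6.33 ± 0.0292 FPKM in those labelled WT (SD, n = 3 each, log2 change 1.56, limma adjusted p = 1.48e-07). Vldlr, a lipoprotein receptor, measured 9.13, 8.55 and 8.72 FPKM in the libraries labelled Prkcz-/-, against 2.95, 3.19 and 2.58 FPKM in those labelled WT (log2 change 1.45). Apoe, an LXR target named after its values were seen, measured 8.99, 10.98 and 8.40 FPKM in the libraries labelled Prkcz-/-, against 1.25, 1.51 and 1.88 FPKM in those labelled WT.

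Of 21 tested genes of other fatty acid synthesis, 12 were lower and 6 higher (median log2 change -0.26), where 37.2% of all genes tested were lower and 31.5% higher. Elovl5, the elongase of polyunsaturated fatty acids, measured 47.9, 48.2 and 46.6 FPKM in the libraries labelled Prkcz-/-, against 114, 122 and 113 FPKM in those labelled WT (log2 change -1.28, SE 0.040, limma adjusted p = 8.28e-08). Aacs, which activates acetoacetate for lipid synthesis, averaged 21.1 FPKM in the libraries labelled Prkcz-/- and 47.7 FPKM in those labelled WT (log2 change -1.16). Of the 6 higher, Elovl7 and Fads3 were named after their values were seen. In the libraries labelled Prkcz-/- and WT, Elovl7 averaged 2.47 and 0.165 FPKM (log2 change 2.16) and Fads3 50.8 and 33.3 FPKM. Of 13 tested genes on isoprenoid branches, 7 were lower and 2 higher (median log2 change -0.27). Coq2, of ubiquinone synthesis, averaged 14.6 FPKM in the libraries labelled Prkcz-/- and 27.0 FPKM in those labelled WT, and Rabggtb, of Rab prenylation, 45.8 and 71.2 FPKM.

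**Figure D4:**
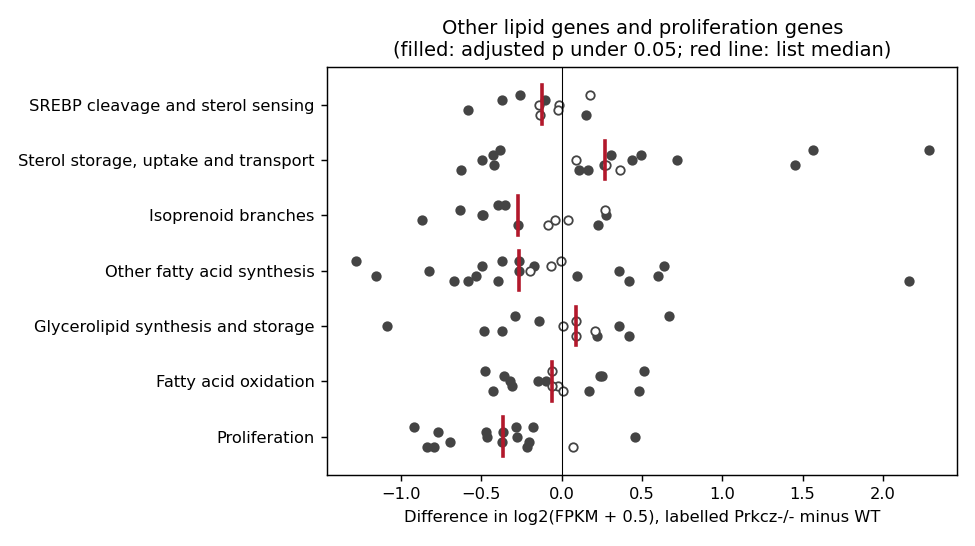
Log2 changes (libraries labelled Prkcz-/- minus WT, 3 each) of tested genes in 6 other lipid lists and in the proliferation list, 1 point per gene, filled where the adjusted p was under 0.05, with the list median in red. Sterol storage, uptake and transport genes lie mostly to the right (median 0.27), and proliferation genes mostly to the left (median -0.37).

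Other measures moved with the sterol genes, in a comparison where 37.2% of all genes tested were lower and 31.5% higher. Of 16 proliferation genes, 14 were lower and 1 higher in the libraries labelled Prkcz-/- (median log2 change -0.37, summed level 1182 to 1193 FPKM there and 1422 to 1431 FPKM in WT), with Ccnb2 at 62.2 and 118 FPKM and Bub1 at 18.2 and 33.0 FPKM in the libraries labelled Prkcz-/- and WT. Of 8 smooth muscle and pericyte markers 7 were tested, and 4 were lower and 1 higher, with a summed level of 175 to 181 FPKM in the libraries labelled Prkcz-/- against 583 to 626 FPKM in those labelled WT. Actg2 averaged 52.9 FPKM in the libraries labelled Prkcz-/- and 461 FPKM in those labelled WT, most of the sum in the WT libraries only. Cnn1 averaged 86.7 and 86.4 FPKM in the libraries labelled Prkcz-/- and WT and did not pass the test. In the same order Smtn averaged 19.7 and 32.2, Mcam 15.3 and 23.7, Cspg4 0.924 and 3.35, and Rgs5, the higher one, 1.29 and 0 FPKM. Myh11 and Des stayed under 0.8 FPKM in every library. The part of either list in the sterol result was not tested. Markers of cells that make much lipid were near the floor: the adipocyte list, with 5 of 8 genes in the table, summed to 0.538 to 1.24 FPKM in the libraries labelled Prkcz-/- and 0.281 to 0.795 FPKM in those labelled WT, led by Fabp4. The epithelial list, led by Krt19, summed to 1.06 to 1.88 FPKM in the libraries labelled Prkcz-/- and 1.69 to 2.42 FPKM in those labelled WT. For the macrophage and immune list, led by Cd68, the sums were 2.20 to 3.26 FPKM (Prkcz-/-) and 2.19 to 3.17 FPKM (WT). Endothelial markers summed to at most 0.916 FPKM, and glial and interstitial cell markers to at most 2.65 FPKM.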

How the data were processed

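RNA was measured in 3 libraries labelled Prkcz-/- and 3 labelled WT. Per the labels' protocols, polyadenylated RNA was made into directional libraries and sequenced from a single end. The authors deposited 1 table of FPKM values with a column for each library. The submitters' processing notes name mm10, STAR and DESeq2; for the counter, annotation and strand setting the sources used here give nothing. Genes averaging 0.5 FPKM or more were compared as log2(FPKM + 0.5) with limma 3.58.1 in R 4.3.3 (lmFit, eBayes with a variance trend, two-sided, Benjamini-Hochberg over 12130 genes), and log2 changes understate those of low genes. The fit was tested on simulated data. The members, lists and motifs were chosen with earlier results of these data known. All members are named. Values by library are given for the 4 members of each role with the smallest p, for a set of regulators and desaturases, and for Ggps1, Sqle, Ebp, Tm7sf2, Scap, Fasn and Abcg1, added after their values were seen. From other lists the 2 genes with the smallest p are named, except 1 that is not reported here. Depth was estimated from low values: 2181 of 3568 genes with every value under 0.3 after rescaling were whole multiples of 1 step (tolerance 0.02), and GENCODE M21 exon lengths gave about 12200000 to 13900000 reads per library, approximate because the gene lengths the authors used are unknown here. Positions are from GENCODE M21 (GRCm38), and promoters from RefSeq (GRCm38.p6). Alternatives are in the closing section.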

Additional observations from a re-analysis of the deposited data

How the results depend on the processing

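Of the 39 tested members, each kept its direction and its side of the threshold with other pseudocounts, no filter, median-ratio scaling, other variance models and array weights. Srebf2 turned to 0.021 with quantile normalization and 0.022 without short RNA genes, and Scap to 0.045 without short RNA genes. Neither passed the test under any setting. Leaving out short RNA genes rescaled every library to an equal sum and moved the median of all genes tested from -0.038 to 0.037. As deposited, the libraries labelled Prkcz-/- summed to 441972 to 442730 FPKM and those labelled WT to 459388 to 486793 FPKM. The cause of the turn with quantile normalization was not tested. The Srebf1 and Ggps1 calls that ended are given beside their values. Same-numbered libraries showed little common deviation (correlations of 0.060, 0.015 and 0.008). For replicates 1 and 2, but not 3, the best-matching WT library had the same number. No label says whether a number stands for a common preparation. A replicate block gave 32 members lower and 4 higher, and 3718 genes higher and 4375 lower in all. Over all settings 30 to 32 members were lower. Those lower by a log2 change of at least 1 numbered 12 with median-ratio scaling, 12 with quantile normalization, 11 without short RNA genes and 13 to 14 leaving out a library, against 14. A filter at a mean of 2 FPKM left 1 member higher by that much, since Nr1h3 was no longer tested, and moved the LXR median to 0.27.

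The role medians kept their signs. The mevalonate median was -1.21 and -1.15 with pseudocounts of 0.1 and 1, -1.16 with median-ratio scaling, -1.15 with quantile normalization, -1.11 without short RNA genes, -1.16 with array weights, and -1.21 to -1.16 leaving out a library. The sterol-step median was, in the same order without array weights, -0.86, -0.80, -0.80, -0.86, -0.75, and -0.86 to -0.81. The fatty acid median was -0.61 with median-ratio scaling, -0.56 without short RNA genes, and -0.66 to -0.60 leaving out a library. The SREBP regulator median was -0.064 with median-ratio scaling, -0.032 with quantile normalization, -0.013 without short RNA genes, and -0.12 to -0.082 leaving out a library. The LXR median, over 4 genes, was 1.38 and 0.66 with pseudocounts of 0.1 and 1, 0.33 with no filter, 0.73 with quantile normalization, and 0.78 to 0.97 leaving out a library. With no filter Abcg1 also passed the test (log2 change 0.33, limma adjusted p = 0.00107). Low read numbers limit Nr1h3 and Abcg1. The alternative planned for counts was not run, because the table holds none.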

Other observations

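Of 16 tested genes of fatty acid oxidation, 7 were lower in the libraries labelled Prkcz-/- and 5 were higher (median log2 change -0.06). Over all genes tested 37.2% were lower and 31.5% higher, so the counts of this list and of the glycerolipid list say little by themselves. Acadl, the long-chain acyl-CoA dehydrogenase, averaged 56.7 ± 1.63 FPKM in the libraries labelled Prkcz-/- and 39.6 ± 1.03 FPKM in those labelled WT (SD, n = 3 each, limma adjusted p = 9.24e-06), while Decr1, the dienoyl-CoA reductase, averaged 14.8 ± 0.608 and 20.9 ± 0.307 FPKM in the libraries labelled Prkcz-/- and WT (limma adjusted p = 3.64e-05). Of 13 tested genes of glycerolipid synthesis and storage, 4 were higher and 5 lower (median log2 change 0.09). Plin2, which coats lipid droplets, measured 65.0, 65.0 and 59.7 FPKM in the libraries labelled Prkcz-/-, against 37.7, 41.3 and 39.9 FPKM in those labelled WT (log2 change 0.67, limma adjusted p = 9.82e-06). Agpat1, an acyltransferase of phosphatidic acid synthesis, averaged 35.05 FPKM in the libraries labelled Prkcz-/- and 49.2 FPKM in those labelled WT (log2 change -0.48).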
